A study of Mus musculus with 2 samples.

Results

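The ATF4 and amino acid response genes were 36 mouse genes given as a list of symbols, and all 36 were found among the 32285 genes of the feature tables. They comprised 7 regulators, 7 stress effectors, 5 enzymes of serine and one-carbon metabolism, 5 other amino acid enzymes, 7 amino acid transporters and 5 cytosolic tRNA synthetases. They were followed in a single-cell RNA sequencing study of mouse myeloid-derived suppressor cells (MDSCs, immature myeloid cells that restrain T cells), which asked how blocking exportin 1 alters these cells. The cells of both groups were differentiated in culture with IL-6 and GM-CSF at 40 ng/mL each, sorted as live CD11b+ cells and captured at day 4. The labels do not name the strain, the age or the tissue of the starting cells. The DMSO group received vehicle, and the Selinexor group received 50 nM selinexor, an inhibitor of the nuclear export receptor exportin 1. Each group held 1 library, so no test of treatment was possible, no difference below has a replicate check, and differences between the cultures and an effect of the drug cannot be told apart.

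ATF4 is a transcription factor whose mRNA is translated preferentially when a kinase phosphorylates the initiation factor eIF2, as happens during amino acid shortage, haem deficiency or stress of the endoplasmic reticulum. With C/EBP-family partners it binds composite elements in target genes that take up amino acids, synthesise them and charge them onto tRNA, and in genes that feed back on the stress response. Because ATF4 is controlled largely in translation, the level of its own mRNA need not follow its activity. Suppressor myeloid cells are known for taking up cystine and arginine, so the transporters of these amino acids are of particular interest in this cell type.

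After filtering, 1742 cells with 14209188 UMIs (unique molecular identifiers, each a counted molecule) remained in the DMSO library and 1962 cells with 12771314 UMIs in the selinexor library. The libraries shared 0 barcodes. They differed in depth per cell, with a median of 7786.5 UMIs in DMSO and 3912 in selinexor, and in the share of cells under 2000 UMIs, which was 18.0% and 39.9%. Among marker lists, the summed level of 5 early neutrophil genes was 1266 CPM in DMSO (UMIs of a gene scaled to a common library total) and 506 in selinexor, that of 7 monocyte genes 1249 and 2373, and that of 6 intermediate neutrophil genes 11249 and 11687, with no marker of these lists at 0. Markers of T cells (2 of 4 at 0 in each library), NK cells (2 of 3 at 0 in each) and erythroid cells (3 of 3 and 1 of 3 at 0) summed to at most 1.17 CPM. The 4 basophil and mast cell genes summed to 30.1 CPM in DMSO and 1.02 CPM in selinexor, where 1 of 4 was at 0, and the 3 stem and progenitor genes to 5.07 and 19.7 CPM. The part of these other cells and of the early neutrophil and monocyte shares in the member ratios was not tested beyond the values by cluster given further on.

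The ATF4 binding element is commonly described by the letters TGATGNAA, and the promoter windows of the members were searched for these 8 letters on both strands (TTNCATCA on the reverse). RefSeq promoter windows (build GRCm38.p6, 250 bases before to 50 after a start site) were matched for 30 members, and 10 of these 30 genes (33.3%) held at least 1 match. Over all genes in the same table, 1219 of 27025 (4.51%) did. The genes with a match were Asns, Slc7a11, Atf3, Nupr1, Chac1, Aars, Gars, Trib3, Vldlr and Pycr1, and in Trib3 it lay after the start site. A match describes letters in a window and is not a measured binding site. The stretches around the matches upstream of the start site are shown for 6 of the members with enough counts, because these genes recur in the results. Each is written 5′ to 3′ on the strand of the gene, with the matching letters in capitals. They lie at chr6:7693214-7693243 (Asns, minus strand), chr3:50443623-50443709 (Slc7a11, minus), chr1:191183406-191183473 (Atf3, minus), chr7:126625562-126625591 (Nupr1, minus), chr2:119351019-119351086 (Chac1, plus) and chr6:55037941-55038000 (Gars, plus).
Asns: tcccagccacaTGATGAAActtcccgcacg
Slc7a11: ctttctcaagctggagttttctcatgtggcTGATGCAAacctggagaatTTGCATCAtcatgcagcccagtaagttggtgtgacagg
Atf3: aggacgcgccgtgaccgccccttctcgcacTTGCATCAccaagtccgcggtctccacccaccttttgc
Nupr1: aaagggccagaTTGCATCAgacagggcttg
Chac1: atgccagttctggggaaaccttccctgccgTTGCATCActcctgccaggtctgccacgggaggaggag
Gars: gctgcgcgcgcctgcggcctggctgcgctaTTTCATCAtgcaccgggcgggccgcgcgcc
The Slc7a11 window held 2 matches in opposite orientation, 66 and 47 bases before its start site. The Asns match began 23 bases before the RefSeq start site, and the stretches of Asns and Nupr1, shortened to 30 bases, lie within exons of the GENCODE annotation of this build, while the other 4 overlap no annotated exon.

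In all cells together, more members were at least 1.5-fold lower than higher in the selinexor library, and most lay between. The asparagine synthetase Asns, the cystine transporter Slc7a11, the large neutral amino acid transporter Slc7a5, the regulators Atf3, Nupr1 and Trib3, the stress genes Ddit4, Chac1 and Eif4ebp1 and the serine enzyme Psph were at least 1.5-fold lower. The cationic amino acid transporter Slc7a1 was at least 1.5-fold higher. Ratios are log2 of selinexor over DMSO on the scale of CPM + 1, and a gene counted as measured with at least 50 UMIs over both libraries. The range in brackets after a ratio is a 95% interval from the counts without the added 1, and it covers counting error only. Of 31 measured members 10 were lower and 1 was higher by 1.5-fold, whereas of 10387 measured genes 3.86% were that much lower and 9.82% that much higher. The median member ratio was -0.09 (interval -0.23 to 0.11), beside 0.13 for all measured genes. The counting intervals of 13 members lay below 0, those of 8 above it, and 10 included it. Intervals were not counted over all genes, so these numbers do not set the members apart from other genes. TMM scaling shifted the median of all genes by -0.12 and median-of-ratios scaling by -0.14, and the share of higher genes among all called genes went from 71.8% to 49.3% and 46.2%. Under these scalings 10 and 11 members were lower and 0 were higher, with medians of -0.23 and -0.25. Of the 10387 genes 640 and 678 were then lower, and 622 and 583 higher. With each cell given equal weight only 3 members were lower (Asns, Slc7a5 and Aldh18a1) and 3 higher, and with each cell thinned to 2000 UMIs 6 were lower and 2 higher. Of the 10387 genes 652 were lower and 1358 higher with equal weight, and 859 and 1563 with thinning.

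**Figure D1:**
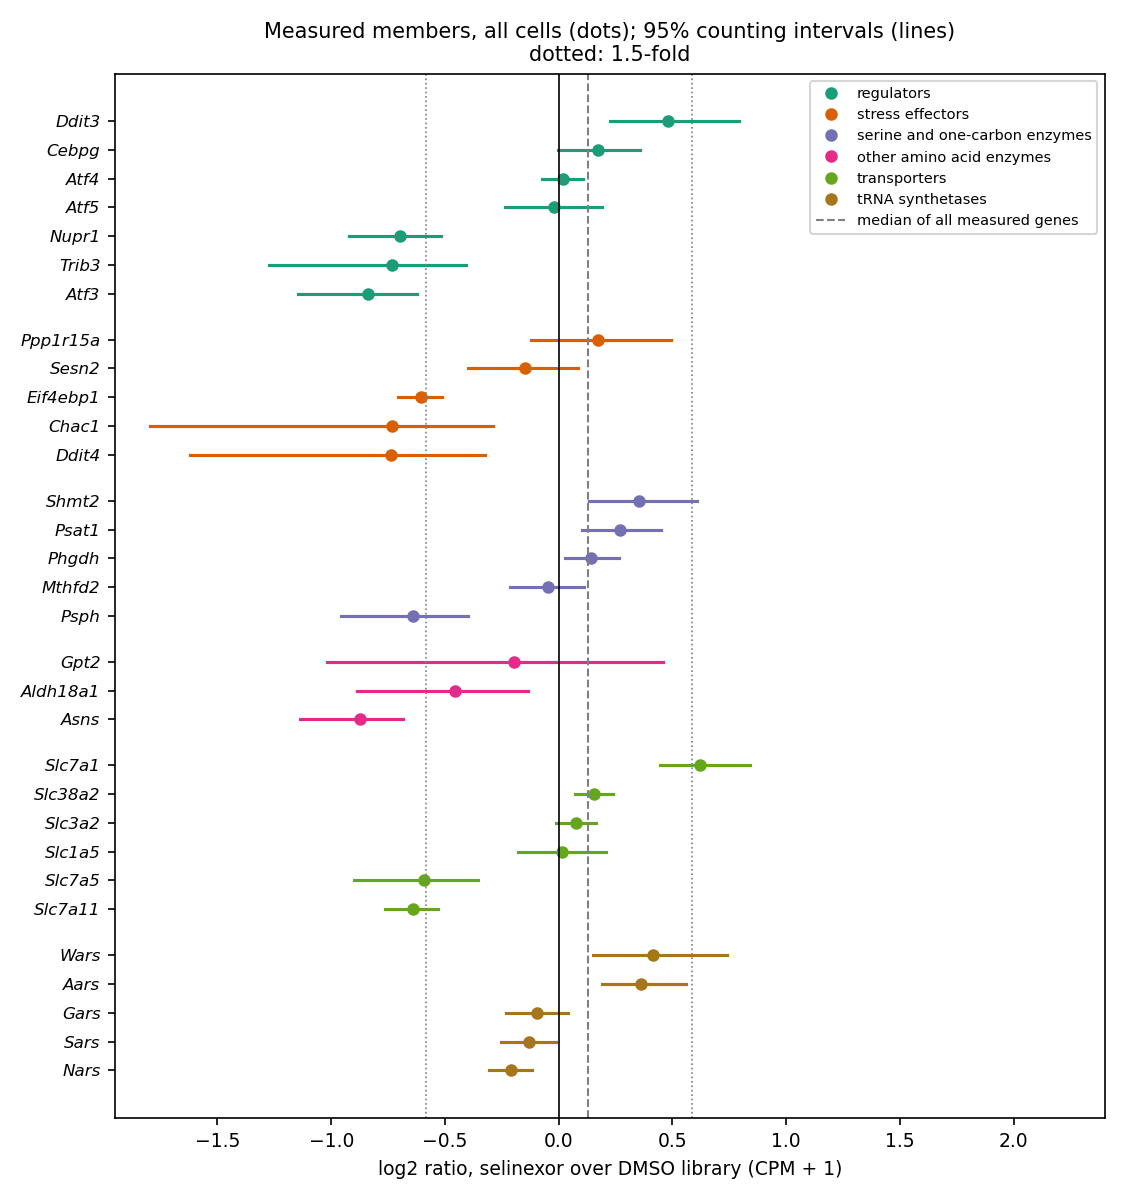
Log2 ratio of selinexor over DMSO (x axis, CPM + 1) for the 31 measured members over all cells, coloured by subset; lines are 95% counting intervals, the dashed line is the median of all measured genes and dotted lines mark 1.5-fold. Asns lies furthest left at -0.87 and Slc7a1 furthest right at 0.62.

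Among the regulators, the mRNA of Atf4 itself was at a similar level in both libraries. It gave 2062 UMIs (145 CPM) in DMSO and 1876 UMIs (147 CPM) in selinexor, a log2 ratio of 0.02 (-0.07 to 0.11). Atf3, a stress-induced repressor and activator of the same family, gave 369 UMIs (26.0 CPM) and 180 UMIs (14.1 CPM), a ratio of -0.84 (-1.15 to -0.62). Nupr1, a small stress-induced chromatin protein, gave 566 UMIs (39.8 CPM) and 309 UMIs (24.2 CPM), a ratio of -0.70 (-0.92 to -0.52). These intervals lie wholly below 0, whereas that of Atf4 spans it. Trib3, a pseudokinase that restrains ATF4, gave 137 UMIs (9.64 CPM) and 69 UMIs (5.40 CPM), a ratio of -0.73 (-1.27 to -0.41). Ddit3, which encodes the pro-apoptotic factor CHOP, went the other way, with 186 UMIs (13.1 CPM) and 238 UMIs (18.6 CPM), a ratio of 0.48 (0.23 to 0.79). The feature table holds 2 overlapping Ensembl genes named Ddit3, at chr10:127290774-127296288 and chr10:127290829-127293753 on the plus strand, whose counts were summed, so its level is uncertain. Its ratio was 1.42 with each cell given equal weight and 0.09 among cells with at least 1000 genes and a mitochondrial share under 5%. The C/EBP-family partner Cebpg was at 0.17 and Atf5 at -0.02, and both intervals include 0. Over the 7 regulators 3 were at least 1.5-fold lower, 0 were higher, and the median was -0.02. With each cell given equal weight, Atf3 was at -0.34 and Trib3 at -0.36, both short of 1.5-fold. With the same cluster mix in both libraries Nupr1 was at -0.18. For this mix, the 9 clusters with at least 20 cells of each library were weighted by their cells in both libraries together. Cells of the other clusters were left out.

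Of the 7 stress effectors, 5 were measured and 3 were at least 1.5-fold lower, with a median of -0.61. Eif4ebp1, the repressor of cap-dependent translation 4E-BP1, gave 2346 UMIs (165 CPM) in DMSO and 1381 UMIs (108 CPM) in selinexor, a ratio of -0.61 (-0.71 to -0.51). Ddit4, an inhibitor of the growth kinase complex mTORC1, gave 67 UMIs (4.72 CPM) and 31 UMIs (2.43 CPM), a ratio of -0.74 (-1.62 to -0.32). Chac1, which degrades glutathione, gave 52 UMIs (3.66 CPM) and 23 UMIs (1.80 CPM), a ratio of -0.73 (-1.80 to -0.29). Few molecules stand behind the last 2 genes. With the same cluster mix their ratios turned positive, to 0.27 for Ddit4 and 0.20 for Chac1, while Eif4ebp1 was at -0.12 there. The mTORC1 inhibitor Sesn2 was at -0.15, and Ppp1r15a, the phosphatase subunit GADD34 that reverses eIF2 phosphorylation, was at 0.17. Their intervals include 0. Stc2, a secreted glycoprotein, gave 23 and 13 UMIs, and the lipoprotein receptor Vldlr 1 and 3 UMIs, too few for a ratio.

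The 5 enzymes of serine and one-carbon metabolism did not follow Asns, apart from the last enzyme of serine synthesis. Phgdh, which commits 3-phosphoglycerate to serine, gave 1175 UMIs (82.7 CPM) in DMSO and 1168 UMIs (91.5 CPM) in selinexor, a ratio of 0.14 (0.03 to 0.26). Psat1, the transaminase of the next step, gave 533 UMIs (37.5 CPM) and 580 UMIs (45.4 CPM), a ratio of 0.27 (0.10 to 0.45). Psph, the phosphatase that releases serine, gave 299 UMIs (21.0 CPM) and 168 UMIs (13.2 CPM), a ratio of -0.64 (-0.96 to -0.40). Thus 2 steps of a short pathway were slightly higher and its last step was lower in the same library. The mitochondrial enzymes Shmt2, which passes a carbon from serine to folate, and Mthfd2, which oxidises the folate unit, were at 0.35 (0.13 to 0.61) and -0.05 (-0.21 to 0.11). The median of the 5 was 0.14, and it was -0.01 under median-of-ratios scaling. With each cell given equal weight Phgdh, Psat1 and Shmt2 were at -0.24, -0.11 and -0.09, and with the same cluster mix Psph was at -0.30.

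Of the 5 other amino acid enzymes, for asparagine, proline, cysteine and alanine, 3 were measured and all 3 were below 0, beside 3742 of 10387 measured genes. Asns, which makes asparagine from aspartate and lies at chr6:7675169-7693254 on the minus strand, gave 495 UMIs (34.8 CPM) in DMSO and 237 UMIs (18.6 CPM) in selinexor. Its ratio was -0.87 (-1.14 to -0.68), the lowest of all measured members, and it stayed between -1.02 and -0.81 over 16 alternative treatments of the data. Aldh18a1, the first enzyme of proline synthesis, gave 155 UMIs (10.9 CPM) and 98 UMIs (7.67 CPM), a ratio of -0.46 (-0.89 to -0.13). The alanine transaminase Gpt2 was at -0.20 with an interval that includes 0. Pycr1, the last enzyme of proline synthesis, gave 12 and 4 UMIs, and Cth, which makes cysteine from cystathionine, 2 and 0 UMIs. A count of 0 among 12771314 UMIs allows up to 3 UMIs.

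Of 6 measured transporters 2 were at least 1.5-fold lower and 1 was higher. Slc7a11, the light chain of the cystine-glutamate exchanger, gave 1695 UMIs (119 CPM) in DMSO and 973 UMIs (76.2 CPM) in selinexor, a ratio of -0.64 (-0.76 to -0.53). Slc7a5, the light chain LAT1 for leucine and other large neutral amino acids, gave 309 UMIs (21.7 CPM) and 180 UMIs (14.1 CPM), a ratio of -0.59 (-0.90 to -0.36). Slc3a2, the heavy chain that both light chains pair with, gave 2166 UMIs (152 CPM) and 2053 UMIs (161 CPM), a ratio of 0.08 (-0.01 to 0.16). Both light chains were thus lower while the interval of their shared partner includes 0. Slc7a1, the arginine and lysine carrier CAT1, gave 365 UMIs (25.7 CPM) and 512 UMIs (40.1 CPM), a ratio of 0.62 (0.45 to 0.84). The neutral amino acid carrier Slc38a2 was at 0.15 (0.07 to 0.24), the glutamine carrier Slc1a5 at 0.01 (-0.18 to 0.21), and the glycine transporter Slc6a9 gave 3 and 2 UMIs. The median of the 6 measured transporters was 0.05, and it was -0.09 under TMM and -0.11 under median-of-ratios scaling. With each cell given equal weight Slc7a11 was at -0.40 and Slc3a2 at 0.62. Without the clusters held to over 95% by 1 library, Slc7a1 and Slc7a5 were short of 1.5-fold, at 0.41 and -0.46.

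None of the 5 tRNA synthetases reached 1.5-fold in either direction over all cells, and they did not move as a block. The enzyme for alanine, Aars, gave 443 UMIs (31.2 CPM) in DMSO and 516 UMIs (40.4 CPM) in selinexor, a ratio of 0.36 (0.19 to 0.56). The enzyme for tryptophan, Wars, was at 0.42 (0.15 to 0.74). The enzyme for asparagine, Nars, gave 2072 UMIs (146 CPM) and 1608 UMIs (126 CPM), a ratio of -0.21 (-0.31 to -0.12). Those for serine and glycine, Sars and Gars, were at -0.13 (-0.25 to -0.01) and -0.09 (-0.23 to 0.04). Aars and Wars thus lay above 0, and Nars and Sars below it, beyond counting error. With the same cluster mix Wars turned to -0.53, although it was higher in selinexor in 5 of 9 clusters and lower in 4.

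Among the measured members with a promoter window, those with a match to TGATGNAA were Asns, Slc7a11, Atf3, Nupr1, Trib3, Chac1, Aars and Gars. The first 6 of these 8 were at least 1.5-fold lower in selinexor over all cells, and the median of the 8 was -0.71. Of the 18 members without a match 2 were that much lower, 1 was higher, and the median was 0.05. In non-cycling cells 1 of 7 with a match was lower and 1 was higher, and with each cell given equal weight only Asns of these 6 stayed past 1.5-fold. Among genes outside the list, 7 of 220 with a match (3.18%) and 284 of 8024 without (3.54%) were at least 1.5-fold lower. This division was made after the ratios had been seen and was not tested.

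Dividing cells were then compared with the rest within each library. Cells with at least 1 UMI of the proliferation genes Mki67 or Top2a were called cycling, which gave 714 of 1742 cells (41.0%) in DMSO and 718 of 1962 (36.6%) in selinexor. Cycling cells were deeper, with medians of 11650 and 11595 UMIs against 4568.5 and 1414.5 in the others, so that a deep cell was more readily called. After thinning each cell to 2000 UMIs the cycling share was 32.0% in DMSO and 33.5% in selinexor. The classes also differ in cell type, and division and cell type were not separated. In the clusters described further on, 6.59% of Mmp9/Cxcr2, 52.6% of Ccl17/H2-Ab1 and 93.5% of Ctsg/Elane cells were cycling. Phgdh was at 5.81, 21.9 and 343 CPM in these clusters over both libraries. All 5 serine and one-carbon enzymes were at least 1.5-fold higher in cycling cells in both libraries. Phgdh was at 30.5 CPM in non-cycling and 117 CPM in cycling DMSO cells, and at 42.2 and 118 CPM in selinexor, which are log2 ratios of 1.91 (1.71 to 2.19) and 1.46 (1.26 to 1.72). Psat1 went from 16.5 to 51.4 CPM and from 21.4 to 58.4 CPM, ratios of 1.58 and 1.40. Psph, Shmt2 and Mthfd2 were at 1.03, 1.24 and 1.30 in DMSO and at 0.86, 1.30 and 0.83 in selinexor. The summed level of the 5 was 94.4 CPM against 283 CPM in DMSO and 114 CPM against 278 CPM in selinexor. With cycling called on the thinned cells, 4 of 5 in DMSO and 3 of 5 in selinexor were that much higher, with medians of 0.92 and 0.64 in place of 1.30 and 1.30.

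The other members were divided. In DMSO 9 of 30 measured members were at least 1.5-fold higher in cycling cells and 1 was lower, beside 13.9% and 6.16% of 9313 genes. In selinexor 8 of 28 were higher and 4 were lower, beside 12.7% and 9.57% of 9388 genes. The member medians were 0.31 and 0.15, and those of all genes 0.07 and 0.02. Slc7a11 was lower in cycling cells of both libraries, with 176 CPM in non-cycling and 82.0 CPM in cycling DMSO cells, a ratio of -1.09 (-1.24 to -0.96), and 129 and 47.4 CPM in selinexor, a ratio of -1.43 (-1.64 to -1.26). Sesn2 was at -0.56 and -1.25, Atf3 at -0.31 and -0.83, and Ddit3 at -0.30 and -0.80. The direction of Ddit3 varied with depth. In selinexor cells of 5000 to 10000 UMIs it was at 14.2 CPM in non-cycling and 18.1 CPM in cycling cells (16 and 24 UMIs). DMSO cells of this depth were at 12.9 and 20.5 CPM (29 and 32 UMIs). At 10000 to 20000 UMIs DMSO cells were at 11.7 and 9.29 CPM (24 and 54 UMIs). The regulators as a group had medians of -0.12 and -0.47 over all depths. Medians were not taken at like depth, so the part of depth in them was not tested. The 5 member synthetases all lay above 0 in both libraries, with medians of 0.37 and 0.16. Of all measured genes 5356 of 9313 in DMSO and 4875 of 9388 in selinexor did. Gars was at 0.83 (0.64 to 1.05) and 0.57 (0.36 to 0.81), and Aars was at 0.88 in DMSO and 0.16 in selinexor. Asns was at 0.50 (0.24 to 0.80) in DMSO and 0.18 (-0.21 to 0.61) in selinexor. Whether these ratios differ between the libraries was not tested.

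**Figure D2:**
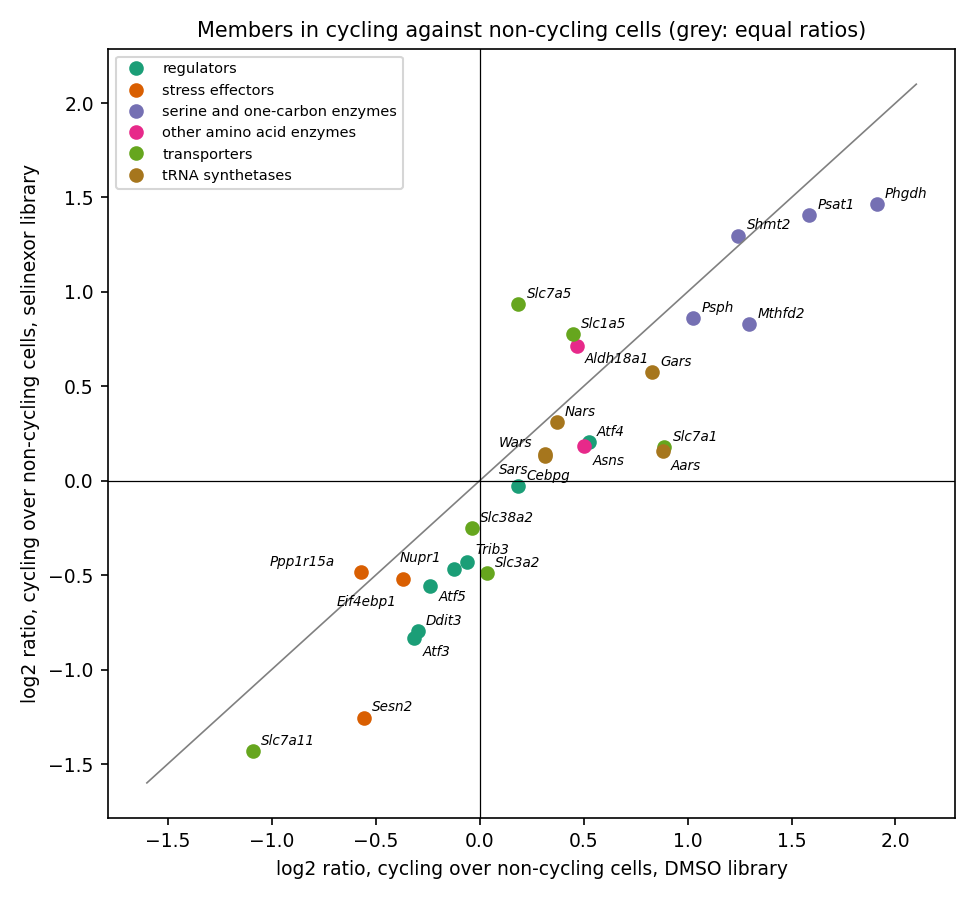
Log2 ratio of cycling over non-cycling cells (CPM + 1) in the DMSO library (x axis) and the selinexor library (y axis); each point is a member measured in both, coloured by subset, and the grey line marks equal ratios. The 5 serine and one-carbon enzymes lie furthest to the upper right, and Slc7a11 is the lowest at -1.09 and -1.43.

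Within cycling cells, where the libraries had similar depth per cell, no member was 1.5-fold higher. Of 30 measured members 9 were at least 1.5-fold lower in selinexor and 0 were higher, beside 4.59% and 9.14% of 9727 genes, and the median was -0.19 against 0.09 for all genes. The intervals of 17 members lay below 0, those of 3 above it, and 10 included it, again without a count over all genes. Asns was at 39.6 CPM in DMSO (339 UMIs) and 19.4 CPM in selinexor (161 UMIs), a ratio of -0.99 (-1.31 to -0.75). Atf3 was at 23.6 CPM (202 UMIs) and 10.9 CPM (90 UMIs), a ratio of -1.05 (-1.49 to -0.75). Chac1 gave 40 and 14 UMIs and Ddit4 44 and 17 UMIs, ratios of -1.08 and -1.01. Trib3, Nupr1, Slc7a11, Psph and Eif4ebp1 lay at -0.88, -0.83, -0.78, -0.72 and -0.65. With these 9 genes, every subset apart from the synthetases held at least 1 gene past 1.5-fold. Atf4 was at -0.10 (-0.21 to 0.01), at 165 and 154 CPM.

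Within non-cycling cells the members were spread to both sides. Of 28 measured members 3 were at least 1.5-fold lower and 3 were higher, beside 4.2% and 15.5% of 8601 genes, and the median was 0.16 against 0.17 for all genes. The intervals of 9 members lay below 0, those of 9 above it, and 10 included it, with no count over all genes beside them. The lower genes were Slc7a5, Asns and Aldh18a1. Slc7a5 was at 20.01 CPM in DMSO (113 UMIs) and 8.48 CPM in selinexor (38 UMIs), a ratio of -1.15 (-1.81 to -0.70). Asns was at 27.6 CPM (156 UMIs) and 17.0 CPM (76 UMIs), a ratio of -0.67 (-1.12 to -0.30), and Aldh18a1 gave 49 and 23 UMIs, a ratio of -0.66 (-1.54 to -0.01). The higher genes were Slc7a1, Aars and Ddit3. Slc7a1 was at 16.6 CPM (94 UMIs) and 36.8 CPM (165 UMIs), a ratio of 1.10 (0.77 to 1.53). Aars was at 20.4 CPM (115 UMIs) and 37.5 CPM (168 UMIs), a ratio of 0.85 (0.53 to 1.24), and Ddit3 at 14.9 CPM (84 UMIs) and 26.1 CPM (117 UMIs), a ratio of 0.77 (0.40 to 1.23). The gap of Ddit3 lay mainly in cells under 2000 UMIs, at 25.2 and 74.7 CPM (9 and 61 UMIs). In non-cycling cells of 5000 to 10000 UMIs Ddit3 was at 12.9 and 14.2 CPM (29 and 16 UMIs). For Slc7a1 and Aars the ratios in cycling cells were 0.39 (0.17 to 0.64) and 0.13 (-0.09 to 0.35). Slc3a2 was at 0.40 in non-cycling and -0.13 in cycling cells, with intervals on opposite sides of 0. Non-cycling cells are also where depth differed most between the libraries. TMM scaling shifted the median of all genes there by -0.18 and median-of-ratios scaling by -0.20, the share of higher genes among those called went from 78.7% to 48.2% and 44.1%, and 9 members were then lower under each, with member medians of -0.01 and -0.04. Of the 8601 genes 724 and 790 were lower under these scalings. In cycling cells the share went from 66.6% to 51.1% and 54.9%.

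**Figure D3:**
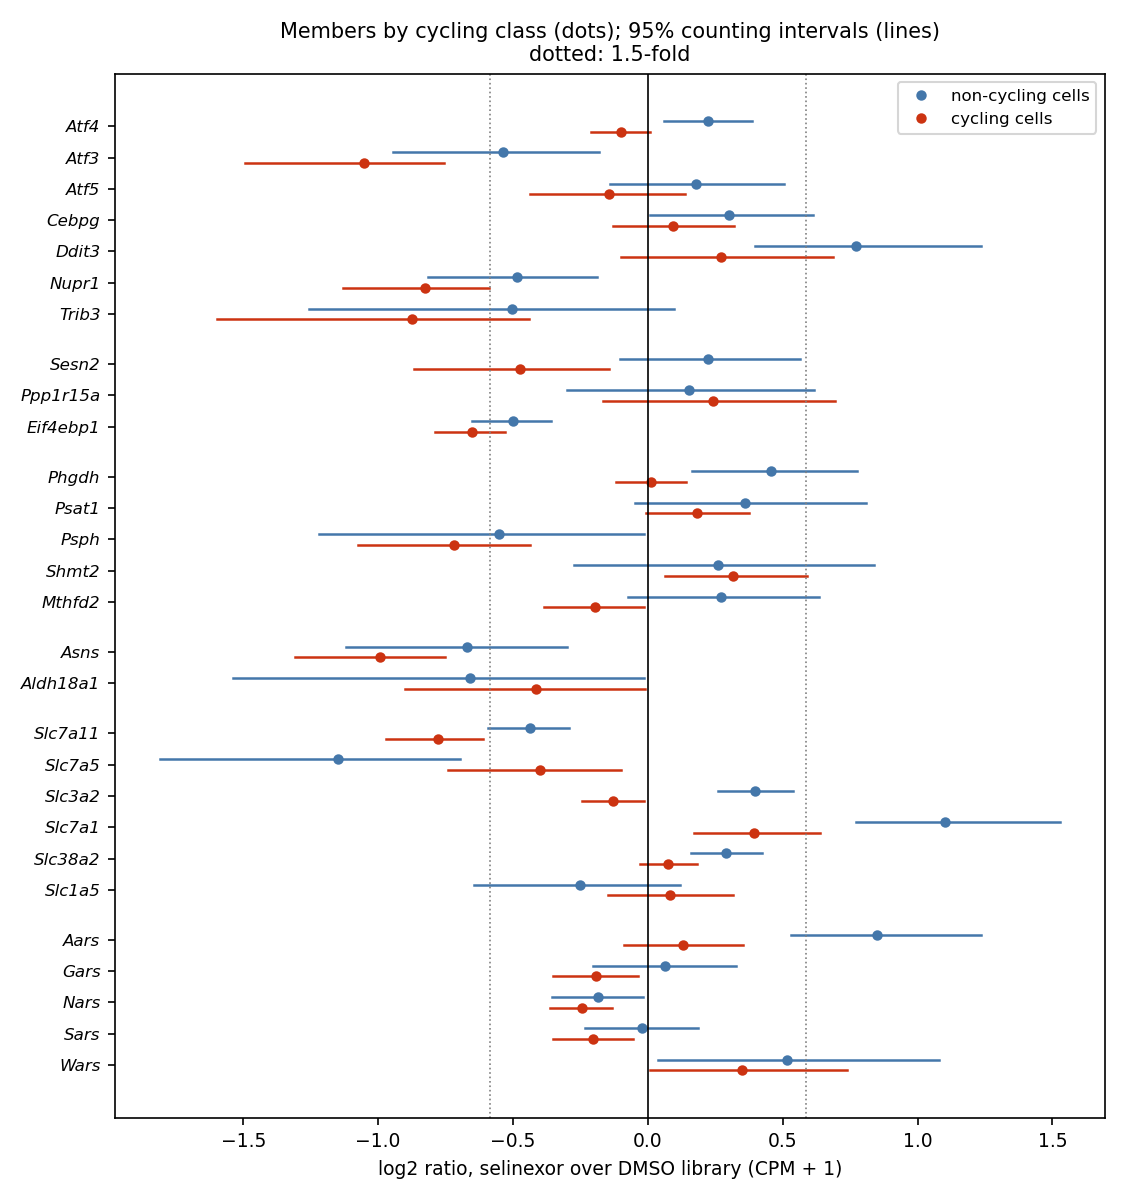
Log2 ratio of selinexor over DMSO (x axis, CPM + 1) for members measured in both classes, in non-cycling cells (blue) and cycling cells (red); lines are 95% counting intervals and dotted lines mark 1.5-fold. Asns is left of 0 in both classes, at -0.67 and -0.99, and Slc7a1 right of 0 in both, at 1.10 and 0.39.

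The cells were clustered without the members, so that these genes could not shape the clusters, and 9 of 13 clusters held at least 20 cells of each library. Clusters are called by 2 of their leading genes. A marker counted for a cluster if it had at least 10 UMIs there and was at least 2-fold higher than in the rest. Clusters without at least 3 such markers of a type carry no type name. The Mmp9/Cxcr2 and Retnlg/Olfm4 clusters were late neutrophil-like, the cycling Camp/Ngp and the Camp/Ltf clusters intermediate neutrophil-like, the Ctsg/Elane cluster early neutrophil-like and the Ccl17/H2-Ab1 cluster macrophage-like, although the antigen presentation gene H2-Ab1 is also a dendritic cell marker. The libraries filled the clusters unequally: the Csta2/Dmkn cluster held 357 DMSO and 16 selinexor cells, and the monocyte-like Fn1/Mrc1 cluster 10 and 336. The type name of the Fn1/Mrc1 cluster rests on 3 of 7 monocyte markers, and Mrc1 itself is a macrophage marker. A cluster left unnamed, with a median of 1056.5 UMIs per cell, held 91 DMSO and 683 selinexor cells. Asns was lower in selinexor in 9 of 9 clusters, and in 5 of them the interval lay below 0. Such counts of clusters, here and in the next paragraphs, were not made over all genes. They do not set the members apart from other genes. In the Ctsg/Elane cluster it was at 66.7 CPM in DMSO (75 UMIs) and 23.4 CPM in selinexor (11 UMIs), in the cycling Camp/Ngp cluster at 45.4 CPM (65 UMIs) and 20.7 CPM (29 UMIs), and in the Ccl17/H2-Ab1 cluster at 28.5 CPM (69 UMIs) and 8.42 CPM (5 UMIs). In the Gpnmb/Apoc2 cluster it was at 98.1 CPM (16 UMIs) and 27.6 CPM (39 UMIs). The cells of this cluster differed in depth and cycling share between the libraries. The 48 DMSO cells had a median of 2140 UMIs with 20.8% cycling, and the 182 selinexor cells 7362.5 UMIs with 42.9% cycling.

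Slc7a11 was also lower in 9 of 9 clusters, 5 of them beyond counting error. In the Gpnmb/Apoc2 cluster it was at 442 CPM in DMSO (72 UMIs) and 53.0 CPM in selinexor (75 UMIs), in the Ccl17/H2-Ab1 cluster at 216 CPM (521 UMIs) and 120 CPM (71 UMIs), and in the dividing Prc1/Top2a cluster at 86.0 CPM (225 UMIs) and 33.2 CPM (64 UMIs). The DMSO cells of the Gpnmb/Apoc2 cluster were shallower, with a median of 2140 UMIs against 7362.5. Over non-cycling DMSO cells Slc7a11 was at 635 CPM under 2000 UMIs, 123 CPM at 5000 to 10000 and 153 CPM at 10000 to 20000. In the late neutrophil-like Mmp9/Cxcr2 cluster, which had 415 DMSO and 40 selinexor cells, it was at 241 CPM in both (313 and 19 UMIs). Atf4, level over all cells, was lower in 9 of 9 clusters and beyond counting error in 5, for example at 189 CPM (270 UMIs) and 138 CPM (193 UMIs) in the cycling Camp/Ngp cluster. With the same cluster mix its ratio was -0.28, but with each cell thinned to 2000 UMIs it was 0.09. Eif4ebp1 and Nars were lower in 8 of 9 clusters, 4 of them beyond counting error, Atf3 and Trib3 in 8 of 9, 3 of them beyond it, and Nupr1 in 7 of 9, 5 of them beyond it. Psph, Mthfd2 and Slc7a5 were lower in 8 of 9 and Sars in 9 of 9, but only 1 cluster for each was beyond counting error.

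The serine enzyme Phgdh varied between clusters. It was highest in the Ctsg/Elane cluster, at 360 CPM in DMSO (405 UMIs) and 303 CPM in selinexor (142 UMIs). In the cycling Camp/Ngp cluster it was at 128 CPM (184 UMIs) and 170 CPM (238 UMIs), and in the Prc1/Top2a cluster at 103 CPM (270 UMIs) and 157 CPM (302 UMIs). It was higher in selinexor in 5 of 9 clusters, 3 of them beyond counting error, and lower in 4. Slc7a1 was higher in 6 of 9 clusters, 2 of them beyond counting error, and Aars in 5 of 9, none of them beyond it.

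**Figure D4:**
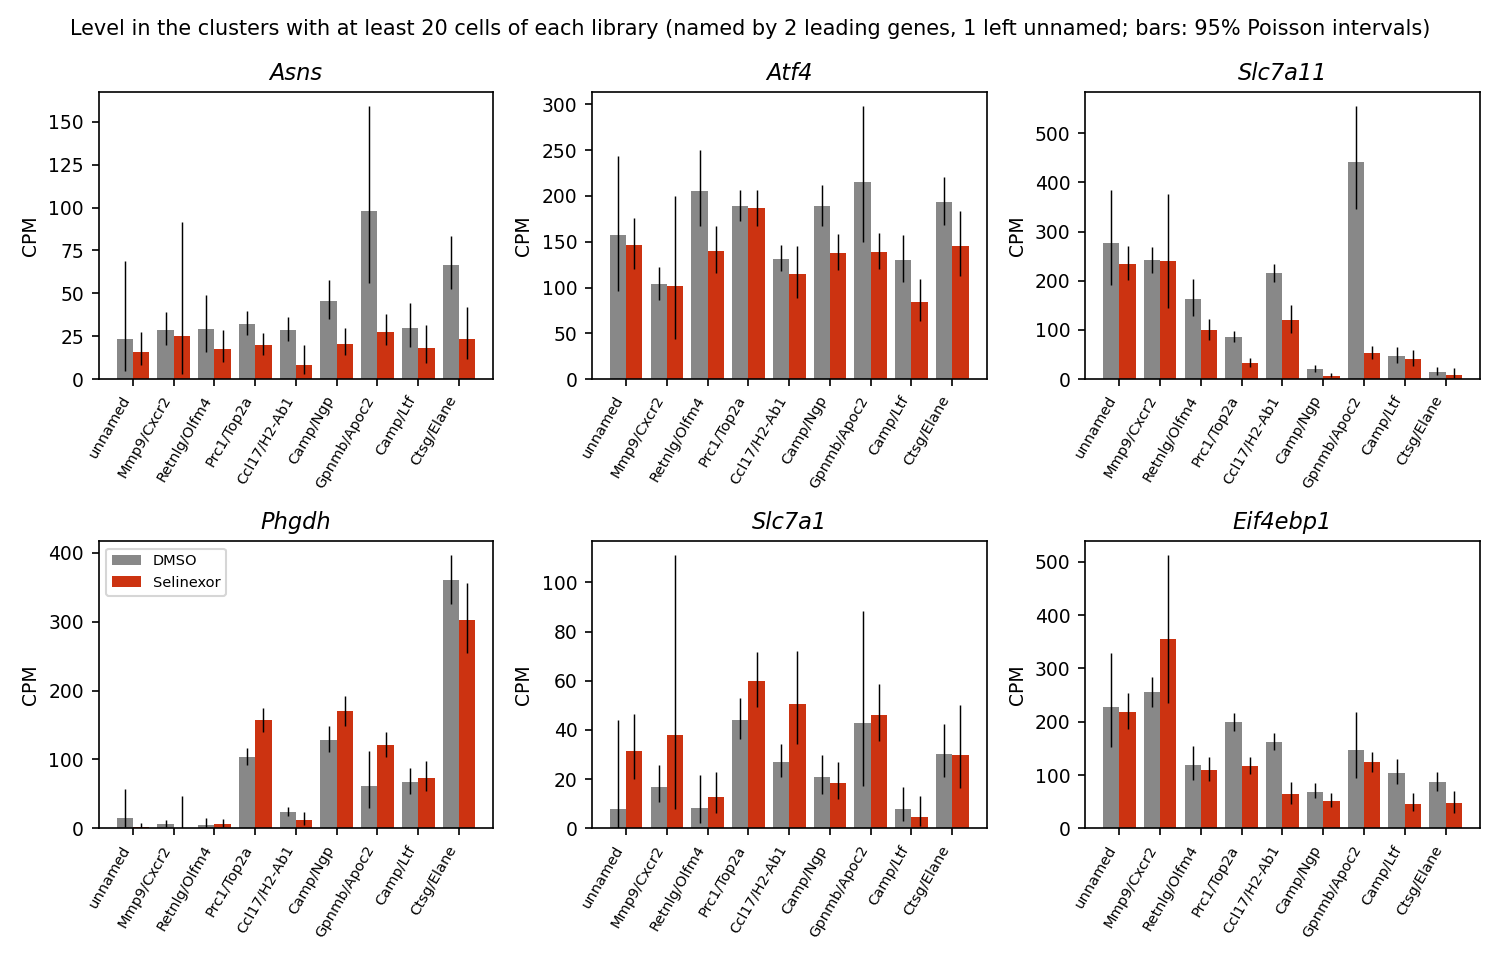
Level (y axis, CPM) of 6 members in the 9 clusters with at least 20 cells of each library, with DMSO in grey and selinexor in red; black lines are 95% Poisson intervals, and clusters are named by 2 leading genes, with 1 left unnamed. The red bar is the shorter in all 9 clusters for Asns, Atf4 and Slc7a11, and Phgdh peaks in the Ctsg/Elane cluster at 360 and 303 CPM.

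Because the selinexor cells were shallower, members were also compared between cells of like depth, in 8 strata of UMI range and cycling class with at least 20 cells of each library. Asns, Eif4ebp1 and Nars were lower in selinexor in 8 of 8 strata, and Slc7a11, Atf3, Nupr1, Psph, Slc7a5 and Aldh18a1 in 7 of 8. Aars was higher in 8 of 8, and Slc7a1 and Wars in 7 of 8. Atf4 was lower in 3 of 8 and higher in 5. Strata were not counted over all genes, so these counts do not set the members apart from other genes. In cycling cells of 10000 to 20000 UMIs, Asns was at 34.9 CPM in 420 DMSO cells (203 UMIs) and 19.7 CPM in 396 selinexor cells (109 UMIs). In non-cycling cells of 5000 to 10000 UMIs, Aars was at 19.6 CPM in 302 DMSO cells (44 UMIs) and 39.8 CPM in 153 selinexor cells (45 UMIs).

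Genes next to the members were read in 6 lists. Of all 10387 measured genes 3.86% were at least 1.5-fold lower in selinexor and 9.82% higher. Upstream of ATF4, in 13 genes for the eIF2 kinases, their regulators Gcn1 and Impact, eIF2, its exchange factor and the phosphatase subunit Ppp1r15b, 0 of 13 measured genes were 1.5-fold lower or higher. Their median was 0.04, from Eif2b4, a subunit of the exchange factor, at -0.24 to the haem-regulated kinase Eif2ak1 at 0.49 (0.30 to 0.72). The 15 cytosolic tRNA synthetases outside the members had 0 lower and 0 higher, a median of -0.01, and a range from the aspartate enzyme Dars at -0.49 to the histidine enzyme Hars at 0.30. All 15 lay above 0 for cycling over non-cycling cells in both libraries, at 0.23 (the glutamine enzyme Qars) to 1.31 (the valine enzyme Vars) in DMSO. Of all measured genes 5356 of 9313 in DMSO and 4875 of 9388 in selinexor lay above 0 there. Of 17 mitochondrial synthetases 0 were lower and 1 was higher, with a median of 0.21, from the phenylalanine enzyme Fars2 at -0.41 to the tryptophan enzyme Wars2 at 0.66 with 23 and 40 UMIs. In the unfolded protein response of the endoplasmic reticulum 2 of 16 were lower and 1 was higher, with a median of -0.15. The extremes were Sdf2l1, a chaperone cofactor, with 1916 UMIs (135 CPM) and 886 UMIs (69.4 CPM), a ratio of -0.95, and Dnajb9, another chaperone cofactor, with 230 UMIs (16.2 CPM) and 348 UMIs (27.2 CPM), a ratio of 0.72.

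Folate enzymes outside the members had 0 of 6 measured genes lower and 0 higher in selinexor, with a median of -0.09, from the thymidylate synthase Tyms at -0.25 to the cytosolic folate enzyme Mthfd1 at 0.43. As with the serine enzymes, most stood at least 1.5-fold higher in cycling cells, 5 of 6 in DMSO and 6 of 6 in selinexor, with Tyms highest at 2.47 and 2.60. Of all measured genes 13.9% and 12.7% were that much higher. Targets of NRF2, the transcription factor of the oxidant response that also drives Slc7a11, were below 0 in 8 of 8 genes, with a median of -0.47, and 3 of them were at least 1.5-fold lower. Of all 10387 measured genes 3742 lay below 0, and 3.86% were that much lower. Gclm, the modifier subunit of the rate-limiting enzyme of glutathione synthesis, gave 3226 UMIs (227 CPM) in DMSO and 1178 UMIs (92.2 CPM) in selinexor, a ratio of -1.29 (-1.40 to -1.20), and the haem transporter Slc48a1 was at the upper end of the list at -0.26. The lower level of Slc7a11 thus stood beside lower levels of these genes as well as of Asns, and any link between them was not tested.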

How the data were processed

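Single-cell RNA was measured in 1 DMSO and 1 selinexor library. The authors deposited raw UMI counts for each gene in each cell barcode, and the submitters' processing notes name Cell Ranger 6.1.2 and build mm10. The sources used here do not give the annotation release or how barcodes were called as cells. The counts also held 12 multiplexing tags. The tag with most counts was CMO305 in all 1784 DMSO barcodes and CMO306 in all 1989 selinexor barcodes. Of 1784 DMSO and 1989 selinexor barcodes, cells needed 200 detected genes and a mitochondrial share under 10%. Scrublet (scanpy 1.11.5) called 1 and 5 doublets, which is 0.162% of cells and so few that doublets must be taken as present.

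Counts were summed over all, cycling or non-cycling cells per library and scaled to CPM, and ratios used a pseudocount of 1 CPM. Intervals are exact binomial intervals of the ratio or exact Poisson intervals of a level. UMIs of 1 culture are not replicates, so no p-value was computed. The ratio code was tested on simulated data. Cells were clustered on 2000 variable genes less the 7 members among them, 30 principal components, 15 neighbours and Leiden resolution 1.0 (leidenalg 0.10.2). Scaling alternatives used edgeR 4.0.16 (TMM) and DESeq2 1.42.0 (median of ratios) in R 4.3.3. Gene coordinates came from GENCODE for the same build. No promoter entry was matched for Eif4ebp1, Cth, Slc7a5, Slc1a5, Nars and Wars, and 1 promoter stretch is not reported here.

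The members and lists were chosen with earlier results of these data known. Full values are given for measured members at least 1.5-fold apart in all, cycling or non-cycling cells, other measured members by ratio, members under 50 UMIs by UMIs, and of every other list the highest and lowest ratio. Wider values are given where they help to compare members of a subset, and the cluster and depth examples were chosen after their values were seen. Alternatives covered scaling, pseudocount, count floors, cell filters, doublets, cell weighting, thinning, cycling calls and cluster mix.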

Additional observations from a re-analysis of the deposited data

Results flagged for a closer look

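Slc3a2, the heavy chain shared by the transporters Slc7a11 and Slc7a5, went in opposite directions in the 2 cycling classes. Its log2 ratio of selinexor over DMSO was 0.40 in non-cycling cells (848 and 887 UMIs) and -0.13 in cycling cells (1318 and 1166 UMIs), and both counting intervals exclude 0. The direction also went with depth: cycling cells of 2000 to 5000 UMIs were at 104 CPM in DMSO and 200.2 CPM in selinexor (16 and 39 UMIs), and non-cycling cells of 5000 to 10000 UMIs at 143 and 145 CPM (320 and 164 UMIs). The difference between the classes was not tested, since each group held 1 library.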

How the results depend on the processing

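No paired analysis was possible because each group held 1 library. Of the values that answer a comparison, 183 were unchanged within the limits set and 25 moved, and of the single-gene ratios 420 were unchanged, 70 moved and 3 reversed. The 10 lower members over all cells became 3 with cells weighted equally and 6 with thinning, with the same share of cycling cells or with the same cluster mix. With the same cluster mix, Asns, Slc7a5, Atf3 and Trib3 of the 10 stayed lower. Sesn2 and Gpt2, which were not among the 10, were lower there at -0.63 and -1.23. Slc7a11 was at -0.57 there, short of 1.5-fold. Over all 10387 measured genes the 401 lower and 1020 higher became 652 and 1358 with cells weighted equally, and 859 and 1563 with thinning. They became 408 and 1183 with the same share of cycling cells, and 949 and 1123 with the same cluster mix. The 1 higher member became 0 under TMM and median-of-ratios scaling and without the clusters held to over 95% by 1 library (an alternative added after the data were seen), 3 with cells weighted equally, and 2 with thinning, the same share of cycling cells or the same cluster mix. The median over all cells, -0.09, was -0.25 under median-of-ratios scaling. In non-cycling cells the 3 lower members became 1 with a floor of 200 UMIs (fewer genes tested), 9 under TMM, median-of-ratios scaling and thinning, 6 with a cell filter of 1000 genes and a mitochondrial share under 5%, and 7 with cells of at least 2000 UMIs, without the clusters held by 1 library or with cycling called after thinning, and the 3 higher became 1 with cycling called after thinning. Over the 8601 genes measured in non-cycling cells the 361 lower became 724 under TMM, 790 under median-of-ratios scaling and 965 with thinning. In cycling cells the 0 higher members became 1 with cells weighted equally and 3 with thinning. The 889 higher of 9727 genes there became 1015 and 1567. The 8 members higher in cycling cells of selinexor became 5 with a floor of 200 UMIs and 3 with cycling called after thinning. Ddit4 reversed to 0.27 with the same cluster mix, and Chac1 to 0.29 with cells weighted equally and 0.20 with the same cluster mix. The cause of these shifts was not tested. Depth limits Ddit4, Chac1 and the 5 members under 50 UMIs.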
